A study of Caenorhabditis elegans with 32 samples.

Results

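The gonads of wild-type worms whose grandmothers lacked the germ granule proteins MEG-3 and MEG-4 were compared with the gonads of wild-type worms with no such ancestry. The comparison used all libraries of those 2 groups, 3 of wild-type F2 and 3 of wild type, which were 6 of the 32 small RNA libraries of the series. Germ granules are droplets of RNA and protein at the nuclear surface and in the cytoplasm of germ cells, and P granules are the best known kind in Caenorhabditis elegans. They hold Argonaute proteins, which carry small RNAs that recognise transcripts by base pairing. Most gonadal small RNAs counted on a gene are short antisense RNAs copied from its transcript by RNA-dependent RNA polymerases. Such RNAs pass through sperm and oocyte to the progeny and can keep a gene silenced, or licensed for expression, for generations.

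The maternal-cross wild-type F2 had a wild-type genotype with intact meg genes and the mjIs134 transgene on chromosome II, a gfp::h2b fusion driven in the germline by the mex-5 promoter. They descended from BFF40 hermaphrodites mated with SX1263 males. BFF40 is the strain of meg-3(tm4259);meg-4(ax2026) double mutants kept for more than 80 generations, also with the transgene, and is called the long-term mutant below. Double mutant F2 of the same cross, the long-term mutants themselves and paternal-cross wild-type F2 (SX1263 hermaphrodites mated with BFF40 males) served as further groups, with 3 libraries each. Wild type was strain SX1263 itself. All worms were grown at 20 °C, and RNA came from dissected gonads of young adults and was extracted with the same column kit. Every group expressed the germline GFP transgene, so none is free of it. The labels give single strains and do not say whether replicates came from separate crosses or cultures, so the p-values measure the spread between these libraries, which may be technical.

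The F2 libraries held 3541965, 5836852 and 6262446 reads assigned to features (replicates 1, 3 and 4), and the wild-type libraries held 4470913, 5973759 and 14871375 (replicates 1, 2 and 3). A feature with 3 counts therefore stood at 0.479 to 0.847 CPM in an F2 library and at 0.202 to 0.671 CPM in a wild-type library, where CPM is counts per 1000000 assigned counts. Long-term mutant replicate 3 was shallow, with 126214 counts, and 3 counts stood at 23.8 CPM in it. Ranges of the long-term mutants below include this library, whose values under 23.8 CPM rest on fewer than 3 counts. The values are small RNA counts on a gene and not the level of its transcript. Fewer cells that make a small RNA and less of it per cell cannot be told apart in whole gonads. In the F2 libraries 53.2% to 54.7% of reads were assigned to features, against 56.3% to 59.5% in wild type. Reads not aligned were 28.8% to 30.1% in F2, against 25.7% to 27.8% in wild type, and the part of this difference in the results was not tested.

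The wild-type F2 differed from wild type over a wide range of features. Of 10230 features tested, 2805 differed from wild type at an adjusted p under 0.05 (27.4%). Of these, 1294 were higher in F2 (12.6%) and 1511 were lower (14.8%), and 4001 features had an unadjusted p under 0.05. In CPM, the 3 libraries of one group all lay beyond those of the other for 4623 features (45.2%), and for 2322 of the 2805 that differed. CPM is scaled by total counts and the calls by TMM (described below), so overlap and calls rest on unlike scalings. Some features without overlap, such as mut-7 and rsd-6 below, had almost no change under TMM. Losses were more frequent among changes over 2-fold, and gains among those over 8-fold. By over 2-fold 770 features were higher and 1108 lower. By over 8-fold 180 were higher and 135 lower, and by over 32-fold 41 were higher and 12 lower. At the threshold, egl-4 (log2 fold change 0.46, adjusted p = 0.04991) was the last feature called and bath-42 (0.54, adjusted p = 0.05004) the first that was not.

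The balance of higher and lower calls depended on how libraries were scaled. The median log2 fold change of all features was 0.038 under the main scaling (TMM, a trimmed mean of ratios between libraries), and scaling by total counts alone moved it by -0.314. Of the features called, 46.1% were higher in F2 under TMM (1294 higher and 1511 lower), against 21.1% under total-count scaling (586 higher and 2190 lower). A call is marked below where total-count scaling ended it. Leaving out any single library of the 2 groups lowered the calls in both directions. Without wild-type replicate 2 there were 692 higher and 1102 lower (1794 in all, the fewest), and without wild-type replicate 1 there were 799 higher and 1131 lower.

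**Figure D1:**
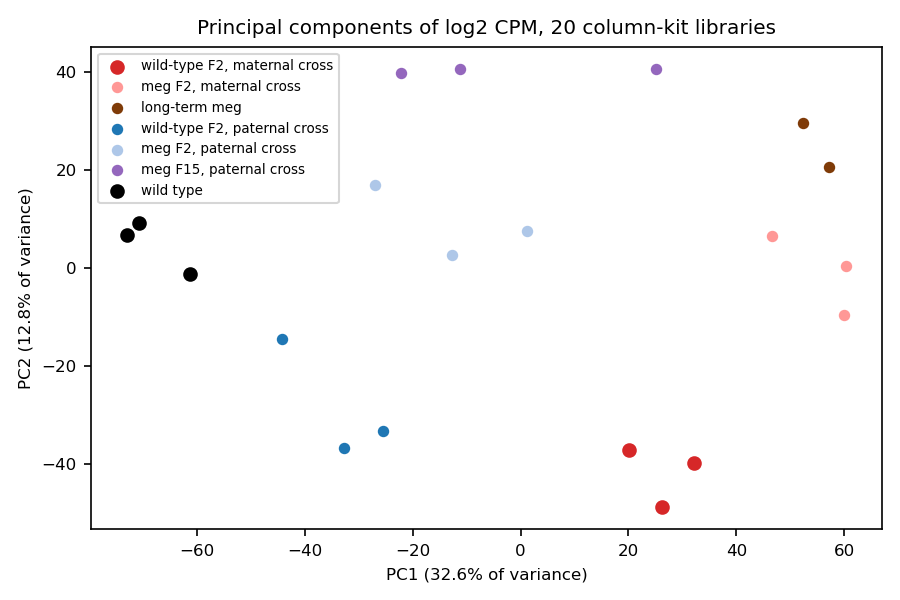
Each point is a library, placed by the first principal component (32.6% of variance, horizontal axis) and the second (12.8%, vertical axis) of log2 CPM over the 10230 features, in 20 column-kit libraries, with the shallow long-term mutant replicate 3 left out. On the horizontal axis the maternal-cross wild-type F2 lay at 20.0 to 32.1, the double mutant F2 of that cross at 46.5 to 60.3, the long-term mutants at 52.3 to 57.2 and wild type at -73.0 to -61.4.

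On the first principal component of the libraries, the 3 maternal-cross wild-type F2 libraries were nearer to the long-term mutants than to wild type. The paternal-cross wild-type F2 lay between -44.2 and -25.5, so the ranges of the F2 of the 2 crosses did not overlap. On the second component the maternal-cross wild-type F2 lay at -48.7 to -37.2, below wild type at -1.14 to 9.08. The paternal-cross wild-type F2 were also below wild type, at -36.6 to -14.5. The long-term mutants lay on the other side of wild type, at 20.5 and 29.5. On this component the maternal-cross wild-type F2 were thus nearer to wild type than to the long-term mutants. The scatter of mean CPM shows both kinds of change, with features near the floor of wild type that were high in F2, and others high in wild type that were near the floor in F2.

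**Figure D2:**
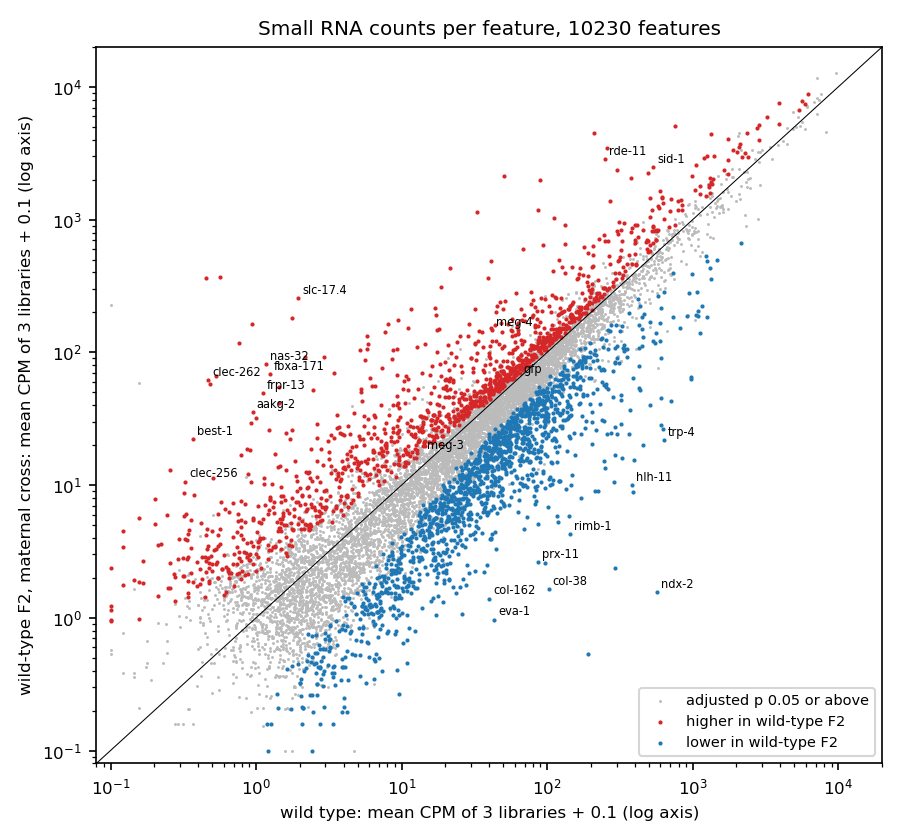
Each point is a feature, with the mean CPM of 3 libraries plus 0.1 in maternal-cross wild-type F2 (vertical, log axis) and in wild type (horizontal, log axis). Of 10230 features, 1294 are coloured as higher in F2 and 1511 as lower, and protein-coding genes named in the text are labelled.

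Among protein-coding genes with a named symbol, the 8 with the largest rises were genes for which wild-type gonads held at most 2.24 CPM of small RNA. The rule that chose them required that F2 and wild-type libraries did not overlap. Slc-17.4 (chromosome IV, 17288200 to 17291733), a transporter of the solute carrier family, had 139, 460 and 171 CPM in F2, against 2.24, 1.67 and 1.61 CPM in wild type. Its log2 fold change was 7.50 ± 1.03 (SE, adjusted p = 0.000111). Its exons overlap those of another gene on the same strand, so its counts are uncertain. In the paternal-cross wild-type F2 slc-17.4 stood at 1.96 to 2.56 CPM, and in the long-term mutants at 87.2 to 233 CPM. The maternal-cross F2 and the grandmother's strain were high, and the paternal-cross F2 were at the wild-type level, with a difference between the crosses of 6.98 ± 1.03 (adjusted p = 0.000317).

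A pair of lectin genes showed the same kind of gain. Clec-262 (V, 20311819 to 20315628), which encodes a protein with a C-type lectin domain, had 111, 24.0 and 50.9 CPM in F2, against 0, 0.502 and 0.605 CPM in wild type (log2 fold change 7.31 ± 0.85, adjusted p = 2.06e-05). All 3 F2 libraries were above the long-term mutants, at 7.08 to 14.7 CPM, but the test of that difference gave an adjusted p of 0.0611. Clec-256 (V, 18771690 to 18772639) had 21, 76 and 79 counts in F2, against 3, 0 and 0 counts in wild type. The ratio of pooled CPM was 94.95, with a 95% counting interval of 32.0 to 465, and the fitted change had an adjusted p of 0.00092. That fitted value was 6.41, with 9.07 without wild-type replicate 1, the library with all of the wild-type counts, and 5.35 without wild-type replicate 3. In the paternal-cross wild-type F2, clec-256 had no count in any of the 3 libraries.

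Nas-32, an astacin family metalloprotease gene (V, 894909 to 899187), was the most even of the gains, with 73.7, 71.3 and 99.5 CPM in F2, against 1.12, 1.34 and 0.74 CPM in wild type (6.66 ± 0.87, adjusted p = 6.55e-05). Its level in the long-term mutants was 71.3 to 160 CPM, and in the double mutant F2 of the same cross 5.34 to 30.6 CPM, below all wild-type F2 libraries (adjusted p = 0.0897). Fbxa-171, an F-box gene (V, 17563210 to 17566003), had 44.3, 88.6 and 73.0 CPM in F2, against 0.671, 1.34 and 1.41 CPM in wild type (6.15 ± 0.59, adjusted p = 2.68e-06). Its F2 libraries were all above the long-term mutants, at 15.8 to 24.0 CPM (adjusted p = 0.104). Frpr-13 (V, 8899056 to 8902407), a member of the FMRFamide peptide receptor family, had 80.5, 58.4 and 7.82 CPM in F2, against 1.79, 0.167 and 1.08 CPM in wild type (5.87 ± 1.02, adjusted p = 0.000651). The F2 libraries thus differed among themselves by more than the range of the long-term mutants, at 33.3 to 55.5 CPM. Frpr-13 lies close to his-17 (V, 8897582 to 8897992), also higher in F2 and described below. Whether these gains are separate was not tested.

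Best-1 and aakg-2 were high in some F2 libraries only. Best-1 (IV, 13108140 to 13109779), of the bestrophin chloride channel family, had 3.39, 42.3 and 20.4 CPM in F2, against 0.671, 0 and 0.135 CPM in wild type (6.92 ± 0.96, adjusted p = 0.000182). It was also higher in F2 than in the long-term mutants, at 0 to 1.51 CPM (3.97 ± 0.91, adjusted p = 0.0174). Long-term replicates 1 and 2, at 1.12 and 1.51 CPM, did not overlap with the F2. The 0 came from the shallow replicate 3 and says little. The fitted change was 6.02 without F2 replicate 3, the highest library, and 7.97 without wild-type replicate 1. Best-1 lies close to rde-11 (IV, 13105200 to 13106927), also higher in F2 and described below. Whether these gains are separate was not tested. Aakg-2 (X, 16866046 to 16869031), a regulatory gamma subunit of the AMP-activated kinase, had 46.6, 2.06 and 57.5 CPM in F2, against 0.895, 0.502 and 1.14 CPM in wild type (5.58 ± 0.86, adjusted p = 0.000248). It was near wild type in F2 replicate 3, and the value was 4.91 without F2 replicate 4. For slc-17.4 the value was 6.74 without F2 replicate 3. All 8 genes were called in each of the alternatives that gave a value for them (13 for best-1 and 14 for the others).

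**Figure D3:**
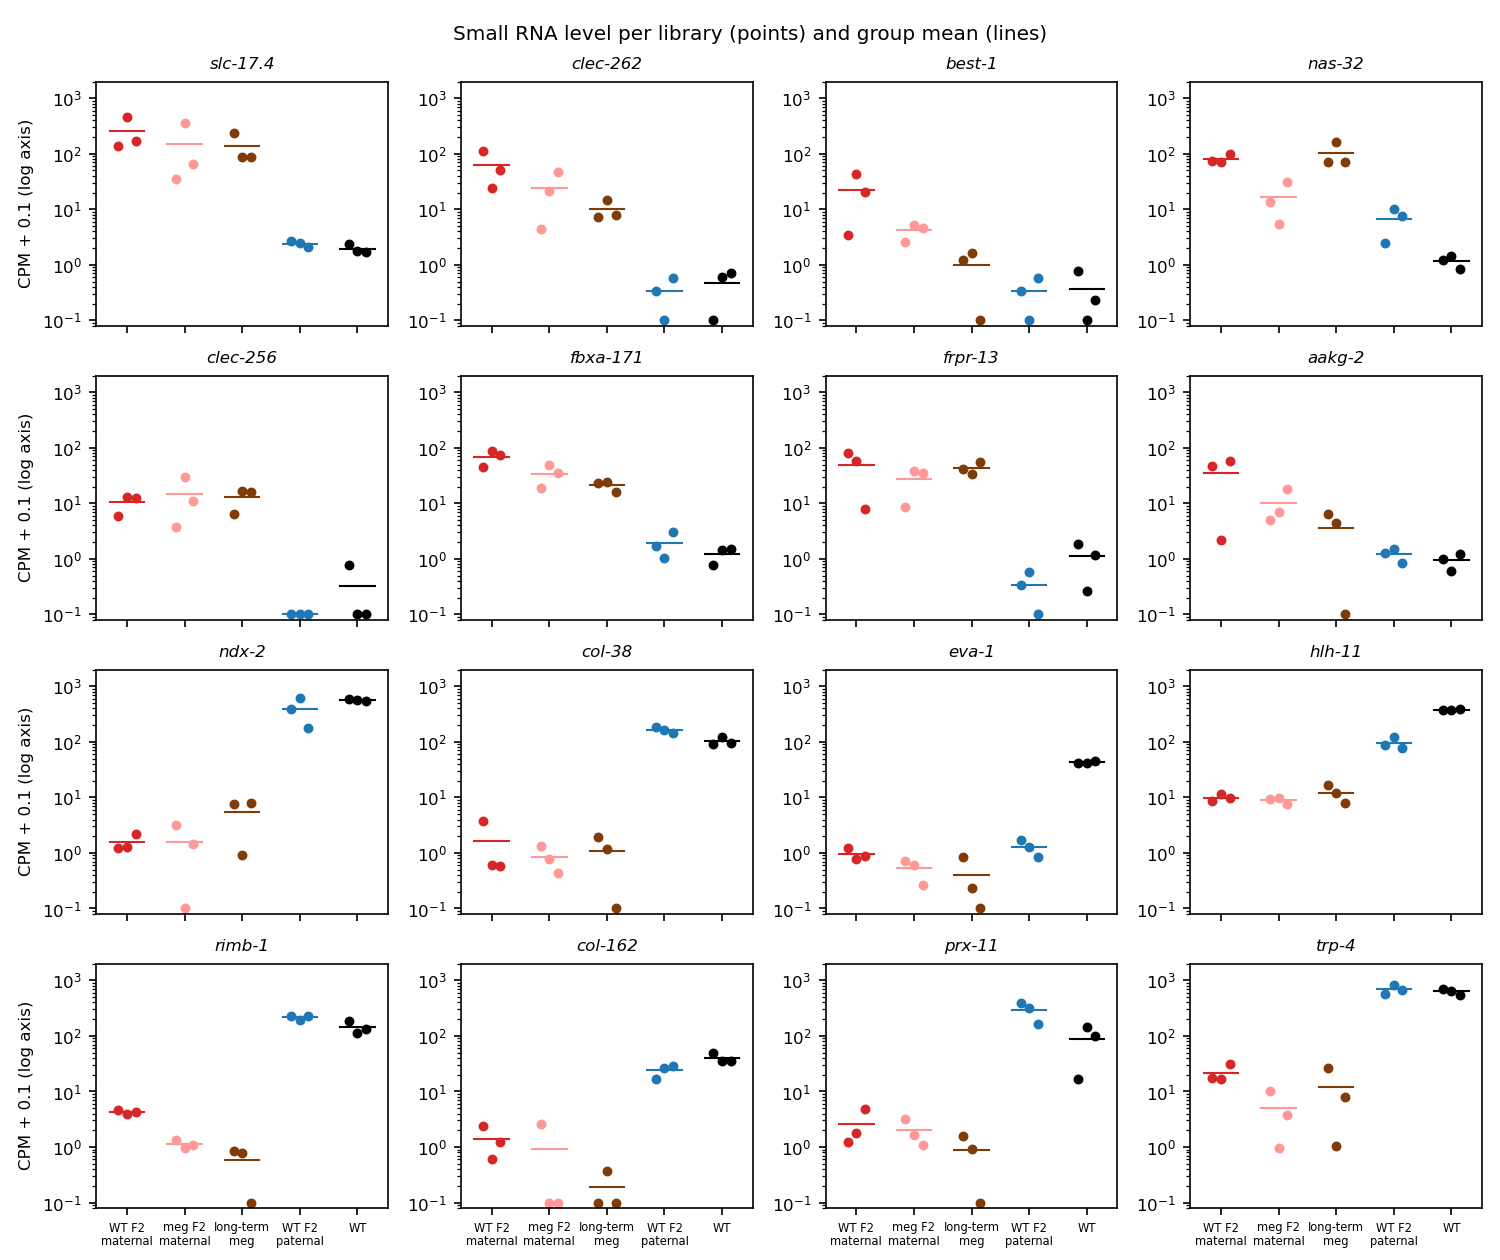
Each panel is a gene, each point a library (CPM plus 0.1, log axis) and each line the mean of 3 libraries, with groups from left to right as maternal-cross wild-type F2, maternal-cross double mutant F2, long-term mutants, paternal-cross wild-type F2 and wild type. The top 8 genes are higher in the maternal-cross wild-type F2 than in wild type, for example nas-32 at 71.3 to 99.5 against 0.74 to 1.34 CPM, and the lower 8 are lower, for example hlh-11 at 8.47 to 11.3 against 369 to 398 CPM.

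The 8 named genes with the largest losses had 17.0 to 701 CPM in the wild-type libraries and at most 31.1 CPM in F2. Ndx-2 (V, 2662964 to 2665003), a Nudix hydrolase gene, had 1.13, 1.20 and 2.08 CPM in F2, against 579, 576 and 554 CPM in wild type (-8.21 ± 1.02, adjusted p = 4.11e-05). Trp-4 (I, 13899085 to 13914008), a mechanosensory channel of the TRPN family, had 17.2, 16.4 and 31.1 CPM in F2, against 701, 652 and 550 CPM in wild type (-4.54 ± 0.92, adjusted p = 0.00191). Its exons overlap those of genes on the opposite strand, and strand use in counting is unknown. Both genes kept high levels in the paternal-cross wild-type F2, at 179 to 612 CPM for ndx-2 and 566 to 839 CPM for trp-4.

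Hlh-11 (III, 9619711 to 9626529), a basic helix-loop-helix transcription factor gene, varied little within groups. It had 8.47, 11.3 and 9.74 CPM in F2, against 374, 369 and 398 CPM in wild type (-4.93 ± 0.40, adjusted p = 3.76e-07). The paternal-cross wild-type F2 stood at an intermediate 77.6 to 121 CPM, above every maternal-cross F2 library and below every wild-type one, and the crosses differed by -3.10 ± 0.38 (adjusted p = 4.59e-05). Rimb-1 (III, 1788333 to 1807147), which encodes a RIM-binding protein of synapses, had 4.52, 3.77 and 4.15 CPM in F2, against 184, 112 and 135 CPM in wild type (-4.80 ± 0.37, adjusted p = 1.82e-07). The double mutant F2 of the same cross were lower still, at 0.861 to 1.24 CPM (-1.88 ± 0.49 from wild-type F2, adjusted p = 0.041). The wild-type F2 were also above the long-term mutants, at 0 to 0.745 CPM (2.41 ± 0.61, adjusted p = 0.0263). For rimb-1 the wild-type F2 thus lay above both mutant groups and far below wild type.

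Among the genes chosen for the largest losses were the collagen genes col-38 and col-162, and other collagen genes were not examined as a set. Col-38 (II, 8568035 to 8569088) had 3.67, 0.514 and 0.479 CPM in F2, against 91.0, 122 and 94.4 CPM in wild type (-5.97 ± 0.63, adjusted p = 6.78e-06, and -7.25 without F2 replicate 1). Col-162 (V, 13441961 to 13443419) had 2.26, 0.514 and 1.12 CPM in F2, against 49.4, 35.1 and 34.6 CPM in wild type (-4.72 ± 0.79, adjusted p = 0.000494). Collagens form the cuticle, outside the gonad, and their small RNA counts say nothing of their transcript level here. Prx-11 (I, 12971615 to 12972259), a peroxisome biogenesis gene, had 1.13, 1.71 and 4.79 CPM in F2, against 17.0, 143 and 99.9 CPM in wild type (-4.63 ± 0.74, adjusted p = 0.000365, and -5.55 without F2 replicate 4).

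Eva-1 (I, 14829732 to 14834841), a receptor gene of axon guidance, differed from the other losses in its pattern over groups. It had 1.13, 0.685 and 0.798 CPM in F2, against 41.4, 42.4 and 45.5 CPM in wild type (-5.32 ± 0.52, adjusted p = 2.82e-06). The paternal-cross wild-type F2 were also low, at 0.736 to 1.63 CPM, and the difference between the crosses did not pass the test (-0.32 ± 0.60, adjusted p = 0.898). A second set of wild-type gonads of the same strain, extracted with phenol and not used in the test, held 3.88 to 5.63 CPM of eva-1 small RNA. The 2 sets of wild-type libraries differ in this gene, and the part of the extraction was not tested. In those phenol libraries ndx-2 had 414 to 548 CPM and hlh-11 311 to 544 CPM, while slc-17.4 had 3.65 to 7.19 CPM and nas-32 1.41 to 4.18 CPM. For these 4 genes the phenol libraries lay nearer to the other wild type than to the F2. This did not hold for every called feature. For linc-21, 21ur-3913 and pid-1, described below, the phenol libraries overlapped the F2, and their mean was nearer to the F2 mean. They held 51.9 to 84.8 CPM of linc-21, against 15.4 to 55.5 CPM in the column-kit wild type. For 21ur-3913 these ranges were 3.13 to 6.00 and 0 to 1.01 CPM, and for pid-1 26.85 to 32.8 and 17.7 to 23.9 CPM. The phenol means of csr-1, gld-1, mip-2, hpl-2, rrf-2, his-29 and 21ur-9204, called features described below, were also nearer to the F2 mean. For rrf-2 the phenol libraries held 252 to 267 CPM, and column-kit wild-type replicates 1, 2 and 3 held 484, 551 and 257 CPM. For hpl-2 the phenol libraries held 72.0 to 91.0 CPM, and those replicates held 137, 164 and 73.4 CPM. The share of such features among all calls was not counted. The extraction differed, so no test was made.

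Pseudogenes moved in both directions and held some of the largest gains. Of 542 tested, 112 were higher in F2 (20.7%) and 54 lower (9.96%), beside 12.6% and 14.8% of all features, with a median log2 fold change of 0.26 against 0.038 over all features. Under total-count scaling 72 were higher and 78 lower, and without wild-type replicate 2 or F2 replicate 4 there were 73 higher. The 3 with the largest rises lie near each other on chromosome V. How reads that match several places were counted is not stated, so counts of single pseudogenes are uncertain. WBGene00007715 (V, 15037795 to 15038835) had 305, 426 and 367 CPM in F2, against 0.224, 0.502 and 0.336 CPM in wild type (10.25 ± 0.79, adjusted p = 1.82e-07). WBGene00014681 rose by 9.97 ± 1.00 (adjusted p = 3.58e-06) and WBGene00007721 by 7.20 ± 0.65 (adjusted p = 1.36e-06). The paternal-cross wild-type F2 also held 184 to 314 CPM of WBGene00007715, and the crosses did not differ past the threshold (0.82 ± 0.48, adjusted p = 0.499). WBGene00007721 was lower in the maternal-cross F2 than in the long-term mutants, at 132 to 264 against 531 to 701 CPM (-1.77 ± 0.48, adjusted p = 0.0398).

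WBGene00018671, a pseudogene on chromosome II (1931143 to 1934507), differed between the genotypes of the maternal-cross F2. It had 57.6, 88.2 and 132 CPM in the maternal-cross wild-type F2, against 2.24, 1.17 and 2.76 CPM in wild type (5.78 ± 0.57, adjusted p = 2.82e-06). The double mutant F2 of the same cross had 3.73, 10.3 and 3.01 CPM, below every wild-type F2 library (-3.85 ± 0.51, adjusted p = 0.000293). The long-term mutants stood at 7.40 to 8.57 CPM, also below the wild-type F2 (3.45 ± 0.57 for wild-type F2 over long-term mutants, adjusted p = 0.00122). In the paternal-cross wild-type F2 the pseudogene WBGene00018671 stood at 25.7 to 83.9 CPM. Among pseudogenes that fell, WBGene00044503 (IV, 6704925 to 6707052) had 8.19, 11.7 and 12.1 CPM in F2, against 117, 124 and 120 CPM in wild type (-3.15 ± 0.40, adjusted p = 5.51e-05). WBGene00014751, WBGene00007899 and WBGene00044038 fell by 4.04, 2.99 and 2.93 on the log2 scale, the first by 4.85 without F2 replicate 1.

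Long intergenic non-coding RNAs gave 11 higher (22.0%) and 5 lower (10.0%) of 50 tested, beside 12.6% and 14.8% of all features, and 6 higher and 5 lower under total-count scaling. Linc-6 (X, 1982710 to 1982883), which lies close to meg-3, had 1553, 1627 and 1250 CPM in F2, against 656, 674 and 519 CPM in wild type (1.57 ± 0.26, adjusted p = 0.000507). The F2 were below the long-term mutants, at 2686 to 3244 CPM (-1.12 ± 0.26, adjusted p = 0.0157), and the double mutant F2 were above the wild-type F2 (1.27 ± 0.26, adjusted p = 0.00941). Its exon overlaps that of another gene on the same strand. Linc-44 (II, 5781921 to 5782113) had 18.6, 37.0 and 30.2 CPM in F2, against 268, 384 and 313 CPM in wild type (-3.14 ± 0.47, adjusted p = 0.000221). For linc-21 (1.88 ± 0.53, adjusted p = 0.0147) and F40H3.6 (-2.42 ± 0.73, adjusted p = 0.02) single libraries decided the call. Without wild-type replicate 1 or 2 the adjusted p of linc-21 was 0.067 and 0.0687, and its value was 2.69 without wild-type replicate 3. Without wild-type replicate 2 or F2 replicate 1 or 3 that of F40H3.6 was 0.0909, 0.056 and 0.0705.

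Genes of the small RNA machinery were themselves targets, and moved in both directions. Of 27 tested genes for RNA-dependent RNA polymerases, Dicer and its partners, and the mutator foci that amplify small RNAs, 7 were higher and 7 lower (25.9% each, beside 12.6% higher and 14.8% lower of all features, median 0.13). Under total-count scaling 1 was higher and 7 were lower, and without wild-type replicate 1 or 2 there were 3 and 4 higher. Rde-11, a zinc finger protein needed to amplify small RNAs in RNA interference, had 3707, 2905 and 1974 CPM in F2, against 172, 227 and 348 CPM in wild type (3.82 ± 0.54, adjusted p = 0.000141). Those that fell included smut-1, a helicase of the mutator foci, with 17.2, 19.0 and 20.0 CPM in F2, against 81.6, 85.0 and 75.6 CPM in wild type (-1.78 ± 0.30, adjusted p = 0.000563). Rrf-2, an RNA-dependent RNA polymerase gene, had 105, 112 and 106 CPM in F2, against 484, 551 and 257 CPM in wild type (-1.69 ± 0.41, adjusted p = 0.00609). Nyn-2, an endoribonuclease gene of the mutator pathway, fell by 1.02 ± 0.24 (adjusted p = 0.00443). Mut-7, an exonuclease gene of the same foci, had 214 to 284 CPM in F2, against 308 to 343 CPM in wild type. It did not pass the test (-0.09 ± 0.16, adjusted p = 0.715). Its log2 fold change was -0.399 under total-count scaling, the scaling of CPM.

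Of 6 tested genes of double-stranded RNA transport, sid-1 alone was called (16.7% higher, beside 12.6% of all features). Sid-1, the channel that takes up double-stranded RNA, had 2875, 2329 and 2254 CPM in F2, against 521, 549 and 531 CPM in wild type (2.53 ± 0.35, adjusted p = 0.000108). Its F2 level was intermediate. It was below that of the double mutant F2 of the same cross (4347 to 6712 CPM, adjusted p = 0.0463) and of the long-term mutants (6335 to 8172 CPM, adjusted p = 0.00672). Rsd-6, which acts in the spread of RNA interference, stood at 59.1 to 72.3 CPM in F2, against 73.8 to 81.4 CPM in wild type. It was not called (log2 fold change 0.07, adjusted p = 0.789). CPM is scaled by total counts, under which its log2 fold change was -0.233, so its level and its TMM value differ in direction.

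Of 17 tested Argonaute genes of 23 listed, 5 were higher (29.4%) and 1 lower (5.88%), beside 12.6% and 14.8% of all features, with a median of 0.39. The direction of this list rested on the scaling, as under total-count scaling none was higher and 3 were lower. Without wild-type replicate 1 or 2 there were 2 higher, and 3 without wild-type replicate 3 or F2 replicate 4. Prg-1, the Piwi protein that binds piRNAs, had 794, 595 and 645 CPM in F2, against 455, 465 and 521 CPM in wild type (0.80 ± 0.18, adjusted p = 0.00364, and 0.0707 under total-count scaling). Csr-1, whose small RNAs target expressed germline genes, rose by 0.66 ± 0.17 (adjusted p = 0.00803, and 0.186 under total-count scaling), and its exons overlap those of another gene on the same strand, so its counts are uncertain. Ergo-1, an Argonaute of the endogenous RNA interference pathway, had 53.9, 45.6 and 31.5 CPM in F2, against 99.5, 87.9 and 90.8 CPM in wild type (-0.79 ± 0.19, adjusted p = 0.0049), and stayed lower under every alternative. Alg-3, an Argonaute of spermatogenesis, rose by 3.38 ± 1.12 from few counts (3, 39 and 13 in F2, against 0, 4 and 6 in wild type). Its adjusted p was 0.0318. The call was lost without any one of the wild-type replicates (0.0606 to 0.0966), without F2 replicate 3 (2.26, adjusted p = 0.183) and under total-count scaling (0.0505). Hrde-1, the nuclear Argonaute of germline inheritance, stood at 661 to 749 CPM in F2 and 659 to 768 CPM in wild type (adjusted p = 0.179).

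Genes of nuclear silencing gave 1 higher (5.88%) and 2 lower (11.8%) of 17, and genes of piRNA production 1 higher and 1 lower of 13 (7.69% each). All of these shares were below those of all features, 12.6% higher and 14.8% lower. Hpl-1, a heterochromatin protein gene, had 9.88, 14.4 and 15.0 CPM in F2, against 73.1, 50.5 and 30.7 CPM in wild type (-1.64 ± 0.42, adjusted p = 0.00805). Its relative hpl-2 fell by 0.71 ± 0.21 (adjusted p = 0.0188). That call was lost without wild-type replicate 1 or 2 or F2 replicate 1 or 3, with adjusted p of 0.0513 to 0.123. Hpl-2 was the gene of that list that also differed from the long-term mutants, at 56.0 to 68.3 against 98.8 to 127 CPM (-0.97 ± 0.22, adjusted p = 0.0139). Mes-6, of the Polycomb complex, rose by 0.74 ± 0.19 (adjusted p = 0.00766, and 0.163 under total-count scaling), its libraries overlapped in CPM, and its exons overlap those of another gene on the same strand. Tofu-2, needed for piRNA processing, fell by 0.97 ± 0.23 (adjusted p = 0.0054). Pid-1, also of piRNA processing, rose by 0.99 ± 0.24 (adjusted p = 0.00514, and 0.0531 under total-count scaling). Nrde-2 and parn-1 were not called (adjusted p = 0.149 and 0.359).

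Of 23 germ granule genes, 4 were higher (17.4%, beside 12.6% of all features) and none lower (median 0.21), and under total-count scaling 1 was higher and 1 lower. There were 2 higher without any one of wild-type replicates 1 and 2 and F2 replicates 1 and 4. Meg-4 was called with libraries that overlapped, at 179, 28.4 and 237 CPM in F2 against 43.6, 40.3 and 40.6 CPM in wild type (2.15 ± 0.60, adjusted p = 0.014). Its F2 replicate 3 was below every wild-type library, and the call was lost without F2 replicate 4 (1.51, adjusted p = 0.0892) or wild-type replicate 2 (2.11, adjusted p = 0.0518). Meg-3 had 21.5, 9.94 and 20.8 CPM in F2, against 10.3, 16.4 and 15.1 CPM in wild type, and was not called (0.62 ± 0.35, adjusted p = 0.199). As a check of the labels, meg-3 had 2.68 to 3.42 CPM in the double mutant F2, below every wild-type F2 library (-2.39 ± 0.40, adjusted p = 0.00187). Meg-4 had 7.77, 17.9 and 51.1 CPM in the double mutant F2, and the highest of these was above F2 replicate 3 of the wild-type genotype. Mip-2 and mip-1, which encode LOTUS domain proteins of P granules, rose by 0.77 ± 0.15 and 0.69 ± 0.20 (adjusted p = 0.00158 and 0.0181). Pgl-1, an RNA-binding P granule component, rose by 0.50 ± 0.17 (adjusted p = 0.032). None of these 3 was called under total-count scaling (adjusted p = 0.0707 for mip-2, 0.262 for mip-1 and 0.545 for pgl-1). The mip-1 call was also lost without wild-type replicate 1 or F2 replicate 1, and that of pgl-1 without wild-type replicate 1 or 2 or any F2 replicate. Glh-4, a Vasa-like helicase gene, was not called (adjusted p = 0.534).

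**Figure D4:**
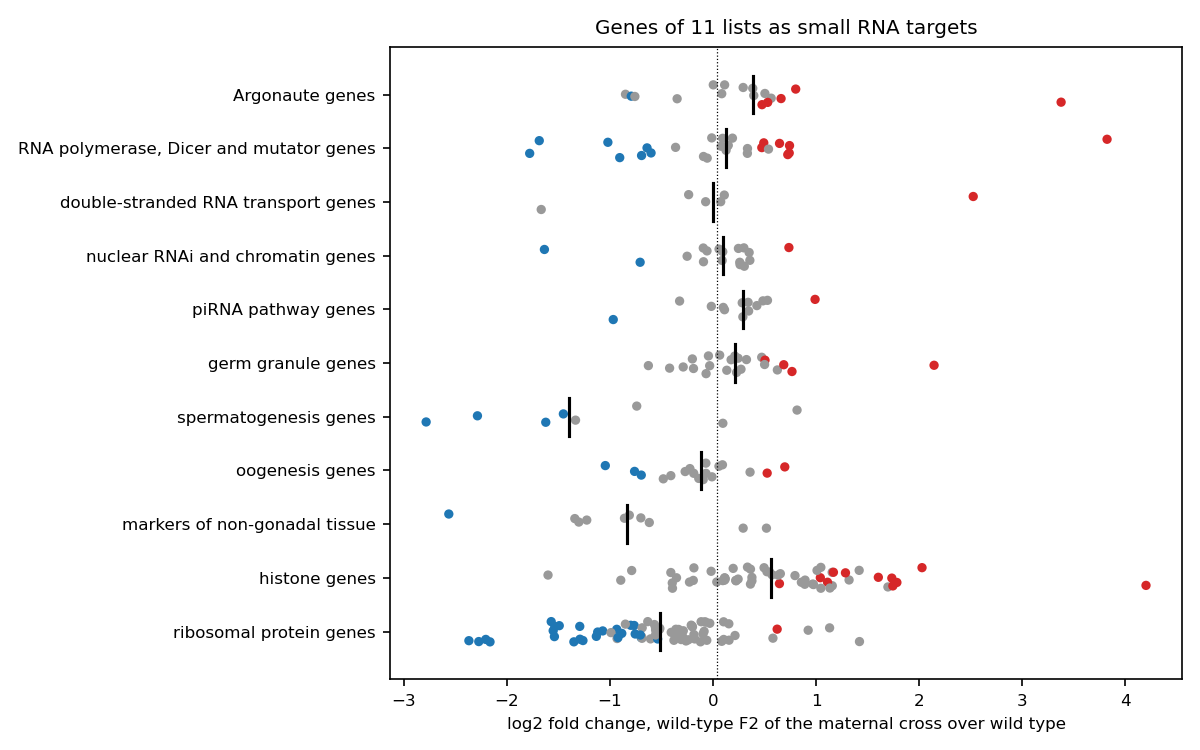
Each point is a tested gene, placed by its log2 fold change in maternal-cross wild-type F2 over wild type (horizontal axis) and coloured red where higher, blue where lower and grey where not called, with black bars for list medians and a dotted line for the median of all features (0.038). Ribosomal protein genes had 25 lower and 1 higher of 76, and histone genes 11 higher of 58.

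Of 76 ribosomal protein genes, 25 fell (32.9%) and 1 rose (1.32%), with a median of -0.52, beside 14.8% lower, 12.6% higher and a median of 0.038 over all features. Over the alternatives 16 to 39 fell and 0 to 2 rose, with the fewest, 16, without F2 replicate 1 and the most under total-count scaling. Summed over the genes, the F2 libraries held 1701 to 1981 CPM, against 3154 to 3838 CPM in wild type (exact two-sided permutation p = 0.1, the smallest that 3 against 3 allows). Rpl-20 had 10.7, 10.1 and 9.74 CPM in F2, against 74.3, 77.2 and 45.1 CPM in wild type (-2.37 ± 0.32, adjusted p = 0.000106). Rps-17, rpl-34 and rps-21 fell by 2.27, 2.21 and 2.17 on the log2 scale (adjusted p = 0.00491, 0.00191 and 0.00038). Rpl-43 was not called (-0.85 ± 0.40, adjusted p = 0.118). The level was also low in the long-term mutants, where the sum was 1655 to 2126 CPM, and in the double mutant F2, where it was 1556 to 1747 CPM. In the paternal-cross wild-type F2 it was 2113 to 3309 CPM.

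Of 58 tested histone genes of 72, 11 rose (19.0%, beside 12.6% of all features) and none fell (median 0.56), and the other 47 did not pass the test. Histones form a multigene family whose members share sequence, so counts of single genes are uncertain. The direction rested on the scaling, as under total-count scaling 5 rose and 6 fell. There were 5 that rose without wild-type replicate 1, 6 without wild-type replicate 2 and 7 without F2 replicate 4. Summed over the genes the F2 libraries held 4207 to 5362 CPM, against 3176 to 3329 CPM in wild type (exact permutation p = 0.1). His-17, a histone H3 gene, had 7.06, 39.2 and 30.8 CPM in F2, against 1.57, 0.67 and 2.76 CPM in wild type (4.20 ± 0.99, adjusted p = 0.00496, and 4.89 without wild-type replicate 3). His-4 had 48.8, 65.3 and 49.5 CPM in F2, against 9.62, 21.1 and 19.4 CPM in wild type (2.03 ± 0.43, adjusted p = 0.00241). His-6 had 24.3, 19.4 and 25.6 CPM in F2, against 9.62, 9.04 and 6.52 CPM in wild type (1.78 ± 0.46, adjusted p = 0.00831). His-29 rose by 1.74 (adjusted p = 0.0446) but was called under 2 of 13 alternatives only, and not under total-count scaling (adjusted p = 0.0764). His-74 was not called (adjusted p = 0.447).

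Few spermatogenesis genes had small RNAs to test in these gonads. Of 26 listed, 8 were tested and 4 of them fell (median -1.39), beside 14.8% of all features. Spe-15, the myosin needed in sperm formation, had 5.08, 3.77 and 6.87 CPM in F2, against 35.1, 31.5 and 30.1 CPM in wild type (-2.29 ± 0.45, adjusted p = 0.00147). Spe-44, a regulator of sperm gene expression, had 7.06, 4.63 and 4.79 CPM in F2, against 23.3, 18.6 and 20.2 CPM in wild type (-1.62 ± 0.28, adjusted p = 0.000642). Elt-1, a GATA transcription factor gene, fell by 1.45 ± 0.35 (adjusted p = 0.0057). Spe-6, a kinase gene, fell by 2.79 ± 0.79 (adjusted p = 0.0154), and by 3.71 without F2 replicate 4. Its call was lost without F2 replicate 1 (adjusted p = 0.057) or 3 (adjusted p = 0.0601). Spe-39 was not called (adjusted p = 0.852).

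Oogenesis genes gave 2 higher (11.1%) and 3 lower (16.7%) of 18, close to the 12.6% and 14.8% of all features, and none higher and 5 lower under total-count scaling. Oma-2, a zinc finger protein of oocyte maturation, had 18.9, 14.4 and 11.7 CPM in F2, against 41.4, 37.0 and 35.2 CPM in wild type (-1.05 ± 0.23, adjusted p = 0.00318). Glp-1, the germline Notch receptor, had 69.7, 49.2 and 48.9 CPM in F2, against 103, 112 and 135 CPM in wild type (-0.76 ± 0.16, adjusted p = 0.00281). Spn-4, a maternal RNA-binding protein gene, fell by 0.70 ± 0.22 (adjusted p = 0.0247). That call was lost without wild-type replicate 1 or 2 or F2 replicate 1 or 4, with adjusted p of 0.0601 to 0.111. Gld-1, a translational repressor of the germline, rose by 0.70 ± 0.15 (adjusted p = 0.00275, and 0.0991 under total-count scaling). Puf-11 was not called (adjusted p = 0.346).

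Markers of tissue outside the gonad were scarce in both groups. Of 23 listed, 10 were tested, none was higher and 1 (10.0%, beside 14.8% of all features), the syntaxin gene unc-64, was lower (-2.57 ± 0.66, adjusted p = 0.00863), with 1, 7 and 3 counts in F2 against 20, 30 and 92 counts in wild type, and its value was -3.33 without F2 replicate 3. The list summed to 27.6 to 38.9 CPM in F2, against 57.7 to 64.8 CPM in wild type (exact permutation p = 0.1), and its median was -0.84. Of the 23, col-10, mir-1, mir-124 and lsy-6 (4 in all) had no count in any of the 6 libraries. Myo-3, a body wall muscle myosin gene, had 1 count in F2 and 2 in wild type. Vit-6, a yolk protein gene made in the intestine, was not called (adjusted p = 0.153, and 0.0362 without F2 replicate 3). Small RNAs on these genes are not their transcripts, and their part in the results was not tested.

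Of 84 piRNA loci tested of 15363 listed, 20 were higher (23.8%) and 2 lower (2.38%), beside 12.6% and 14.8% of all features (median 0.76), and 14 and 6 under total-count scaling. Without wild-type replicate 2 the count was 9 higher, and without wild-type replicate 1 or F2 replicate 1 it was 12, and 13 without F2 replicate 4. Of 59 small nucleolar RNA genes 20 were higher (33.9%) and 2 lower (3.39%, median 1.01), and 12 and 3 under total-count scaling. Of 11 microRNA genes 4 were higher (36.4%) and none lower (median 1.64), and 2 and none under total-count scaling. The small nucleolar RNA count was 12 without wild-type replicate 2 and 13 without wild-type replicate 1, and the microRNA count was 1 without wild-type replicate 1 or 2 or F2 replicate 4. PiRNAs are the short RNAs bound by PRG-1, but strand use in counting is unknown, and 21ur-9204 and 21ur-3913 overlap exons on the opposite strand. 21ur-9204 (IV, 14587084 to 14587104) had 41, 92 and 56 counts in F2, against 2, 0 and 28 counts in wild type (3.95 ± 0.94, adjusted p = 0.00548, and 6.06 without wild-type replicate 3). Wild-type replicate 3, the deepest library, held most of its wild-type counts. The F2 libraries held 8.94 to 15.8 CPM of 21ur-9204, below the phenol-extracted wild type at 16.2 to 25.8 CPM, so the 2 sets of wild type differ at this locus, and the part of the extraction was not tested. 21ur-3913 (3.17 ± 1.04, adjusted p = 0.0307), cel-mir-356a (2.85 ± 0.88, adjusted p = 0.0226) and cel-mir-250 (2.65 ± 0.91, adjusted p = 0.0379) were each called, and lost the call without wild-type replicate 1 or 2 or F2 replicate 4, with adjusted p up to 0.0964 for 21ur-3913, 0.0987 for cel-mir-356a and 0.421 for cel-mir-250. The call was also lost without F2 replicate 1 for 21ur-3913 and without wild-type replicate 3 or under total-count scaling (adjusted p = 0.0582) for cel-mir-250. The exons of cel-mir-356a overlap those of another gene on each strand. Without wild-type replicate 3 cel-mir-356a was 4.35 and 21ur-3913 4.57, and without F2 replicate 4 cel-mir-250 was 1.14.

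The 4 features with the highest mean CPM among those called, a measure that depends on length, differed by less than 2-fold. They were the pseudogenes WBGene00009511 and WBGene00021606, the gene F15D4.5 and eri-6, a helicase gene of endogenous RNA interference whose exons overlap those of other genes on both strands. WBGene00009511 had 8071, 9805 and 8641 CPM in F2, against 5343, 6012 and 7218 CPM in wild type (0.84 ± 0.27, adjusted p = 0.0265, and 0.0652 to 0.0915 without wild-type replicate 1 or 2 or F2 replicate 3 or 4). F15D4.5, eri-6 and WBGene00021606 rose by 0.80, 0.65 and 0.64 on the log2 scale (adjusted p = 0.042, 0.0375 and 0.0474), and none of these 3 was called under total-count scaling, without wild-type replicate 2 or 3 or without F2 replicate 3 or 4. The gfp transgene had 75.4, 68.5 and 52.4 CPM in F2, against 51.0, 65.8 and 75.3 CPM in wild type (0.34 ± 0.20, adjusted p = 0.223).

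The balance of calls on chromosome X differed from that on the autosomes. Of 1125 tested on X, 213 were higher (18.9%) and 77 lower (6.84%), with a median of 0.37. Of 9078 on the autosomes, 1076 were higher (11.9%) and 1433 lower (15.8%), with a median of 0.01. Under total-count scaling 122 were higher and 108 lower on X (median 0.06), and 460 were higher and 2079 lower on the autosomes (median -0.30). Meg-3 and meg-4 lie on X. The features within 1 Mb of either had a median of 0.28 (187 tested, 39 or 20.9% higher and 17 or 9.09% lower). The rest of X had a median of 0.39 (938 tested, 174 or 18.6% higher and 60 or 6.4% lower). The part of nearness to these genes in the balance on X was not tested.

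The F2 libraries differed in this. The median log2 difference of X features from the wild-type mean was 0.22, 0.02 and 0.42 in F2 replicates 1, 3 and 4, against 0.00, -0.02 and 0.02 in wild-type replicates 1, 2 and 3. F2 replicate 3 thus lay within the wild-type range and the other F2 libraries above it. The share of all counts on X was 9.01%, 6.19% and 9.73% in F2, against 7.58%, 7.23% and 7.46% in wild type, so replicate 3 was the lowest and the other 2 the highest (exact two-sided permutation p = 0.4). Without F2 replicate 4, 97 X features were higher and 63 lower (median 0.20), and without F2 replicate 3, 255 were higher and 60 lower (median 0.40). Without wild-type replicate 2, 122 were higher and 53 lower. Of the named features on X, aakg-2, meg-4 and meg-3 were lowest in the same replicate 3. Linc-6 was highest in it (1553, 1627 and 1250 CPM in F2 replicates 1, 3 and 4). Hpl-1 was not low in it (9.88, 14.4 and 15.0 CPM). Chromosome IV, which holds the large piRNA clusters, had a smaller and more even shift, at 0.10, 0.13 and 0.11 in F2, against -0.03, -0.02 and 0.06 in wild type.

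**Figure D5:**
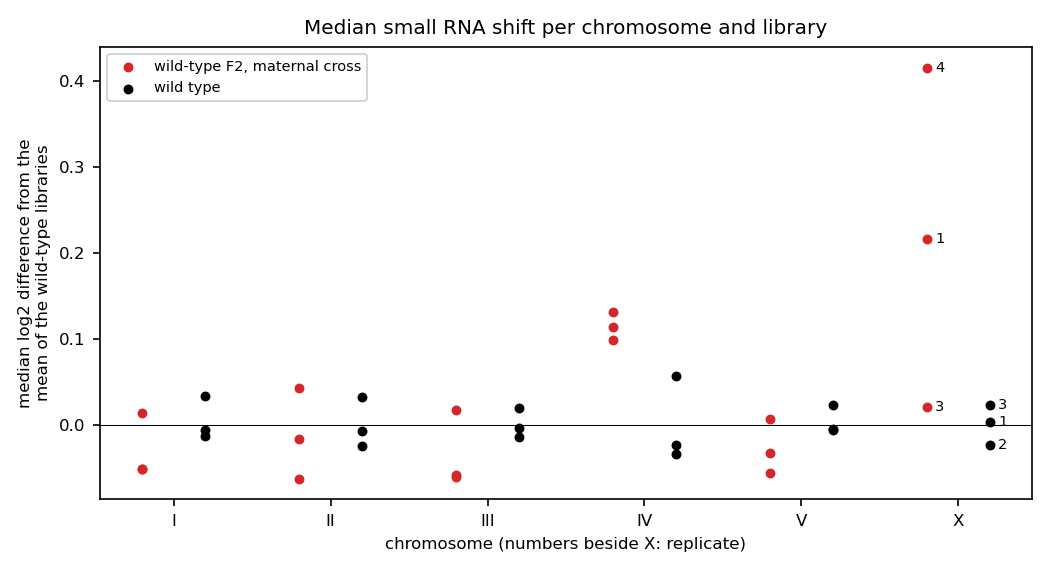
Each point is a library, with the median over tested features of the log2 difference (TMM-scaled CPM plus 1) from the mean of the wild-type libraries (vertical axis) for each chromosome (horizontal axis), and replicate numbers beside chromosome X. On X the maternal-cross wild-type F2 lie at 0.02 to 0.42 and wild type at -0.02 to 0.02, and the F2 libraries are spread out, with replicate 3 among the wild-type libraries.

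Tested directly against the paternal-cross wild-type F2, the maternal-cross wild-type F2 differed in 381 features (3.72%), 211 higher and 170 lower. Comparisons with wild type share the wild-type libraries, so only this direct test bears on the difference between crosses. Of 9109 protein-coding genes 177 were higher and 151 lower, and of 542 pseudogenes 25 were higher and 14 lower. No member of the Argonaute, piRNA pathway, germ granule, spermatogenesis and oogenesis lists was called, and rde-11 (2.31 ± 0.51, adjusted p = 0.0111) and sid-1 (1.90 ± 0.34, adjusted p = 0.0021) were higher. Sid-1 had 2254 to 2875 CPM in the maternal-cross F2, against 610 to 843 CPM in the paternal-cross F2, so the libraries did not overlap. Of 76 ribosomal protein genes 2 were lower in the maternal-cross F2, and of 58 histone genes 2 were higher.

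The double mutant F2 of the maternal cross differed from the wild-type F2 of that cross in 289 features (2.83%), 40 higher and 249 lower in the mutants. Among them were meg-3, meg-4, rimb-1 and WBGene00018671, all lower in the mutants, and sid-1 and linc-6, which were higher. Of 1125 X features 9 were higher and 22 lower in the mutants. The maternal-cross wild-type F2 differed from the long-term mutants in 507 features (4.96%), 398 higher and 109 lower in F2. Among 84 piRNA loci 8 were higher in F2 and none lower, with 21ur-9204 at 8.94 to 15.8 CPM in F2, against 0 to 0.685 CPM in the long-term mutants (4.52 ± 1.29, adjusted p = 0.0493). None of the Argonaute, mutator, piRNA pathway or ribosomal protein genes passed that test. Calls in this comparison fell to 173 without long-term replicate 1, 228 without replicate 2 and 314 without F2 replicate 4.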

How the data were processed

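Small RNAs of dissected gonads were sequenced by the authors after a NEBNext small RNA library preparation, and the deposited files list whole-number counts of reads per feature, one list per library, with no normalization. The submitters' processing notes name cutadapt, FastQC, HTSeq, DESeq2 and the ce11 build, with no role or order. The aligner, the handling of reads that match several places and the use of strand are not given in the sources used here. The 5 closing tallies were kept out of the features, and gene types and positions were taken by identifier from the WBcel235 annotation (Ensembl release 115), which matched 46603 of 46779 features.

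The 21 column-kit libraries (7 groups) were fitted together with edgeR 4.0.16 in R 4.3.3 (quasi-likelihood F test, two-sided, TMM scaling, group means only). Features with at least 10 counts in 3 libraries were tested, and calls were made at a Benjamini-Hochberg adjusted p under 0.05. SE was taken as the absolute log2 fold change divided by the root of the F statistic. Levels are CPM over all assigned counts without TMM scaling, so they can differ in direction from the log2 fold changes. Intervals cover counting error only. Counts over 10230 features were simulated for the comparison of wild-type F2 of the maternal cross with wild type, with 200 features changed. The test found 59 of 84 features changed by 1.5 on the log2 scale and 116 of 116 changed by 3. There were 6 false calls, and no call where nothing was changed. Every simulated feature had the same spread, no feature of low level was changed and no batch was added. The simulation therefore does not measure the rate of false calls in the real libraries.

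Replicate numbers are shared between the wild-type and double mutant F2 of the maternal cross. Same-numbered libraries deviated together in all 3 pairs (r = 0.186, 0.163 and 0.192 across genes), as the data show and the labels do not state, and the fit without the numbers is the one reported. DESeq2 1.42.0, other scalings and filters, fewer groups, a replicate block and leaving out each library were tried as alternatives. The named genes were, among called features with libraries that do not overlap and at least 10 CPM in the higher group, the 8 protein-coding genes, 4 pseudogenes and 2 long non-coding RNAs with the largest rise and fall. To these were added the 4 called features with most counts, up to 4 called members and 1 uncalled member of each gene list, 2 piRNA and 2 microRNA genes, meg-3, meg-4, sid-1, rde-11 and gfp. Genes and lists were chosen with earlier results of these data known. List counts are descriptions beside those of all features. Of the listed symbols, wago-2, wago-11, prg-2, drh-2 and tofu-3 had no match. Summaries used Python 3.11.15 with numpy 2.4.6, pandas 2.3.3, scipy 1.17.1 and matplotlib 3.10.9, and the fits were written out with the R package data.table, version 1.17.8.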

Additional observations from a re-analysis of the deposited data

Results flagged for a closer look

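The wild-type F2 of the maternal and of the paternal cross share their genotype. The direct test of their difference was past the threshold for 381 of 10230 features (3.72%), and for 22 of the 84 features named above. Many of the 84 were named for large differences from wild type in the same maternal-cross libraries. That choice favours a difference between the crosses, so the 22 cannot be set against the share of all features. Values are log2 differences, maternal over paternal cross. Those higher in the maternal cross were slc-17.4 (6.98), clec-262 (8.00), best-1 (6.63), nas-32 (3.79), clec-256 (9.06), fbxa-171 (5.41), frpr-13 (7.66), aakg-2 (5.12), rde-11 (2.31), sid-1 (1.90), his-17 (4.37) and his-6 (1.75). Those lower were ndx-2 (-7.84), col-38 (-6.80), hlh-11 (-3.10), rimb-1 (-5.55), col-162 (-4.14), prx-11 (-6.56), trp-4 (-4.81), WBGene00044038 (-1.999), linc-44 (-3.35) and F40H3.6 (-2.86).

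The paternal-cross libraries held few counts of some of these genes. Clec-256 had 176 counts in the maternal-cross libraries and 0 in the paternal-cross ones, which makes it at least 47.2-fold higher when 3 counts over the group are taken as the floor, and its fitted value is no bound. Clec-262, best-1 and frpr-13 had 3 counts each in the paternal cross, with pooled ratios of 229 (95% counting interval 78.0 to 1111), 104 (35.2 to 505) and 181 (61.7 to 880).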

How the results depend on the processing

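Of 84 named features, 71 were called and 48 of these were called under every alternative, and of 1168 values under the alternatives 1047 kept their direction and side of the threshold, 109 lost the call, 4 gained one and 8 changed sign. The sign changes were in uncalled genes. Under total-count scaling hrde-1 was -0.028, rsd-6 -0.233, nrde-2 -0.009, parn-1 -0.03, glh-4 -0.083, spe-39 -0.205 and his-74 -0.082, and leaving out single libraries gave spe-39 -0.029 to 0.168. The 2805 calls against wild type were 1863 with the replicate block, of which 1809 were shared with the same direction. They were 1794 to 2843 with a library left out, and 2479 to 2926 under the other settings. The F2 and wild type share replicate numbers 1 and 3 only, and same-numbered libraries did not deviate together (r = -0.05 and -0.08). The labels do not say whether they shared a culture or a day, and this was not tested. With the block the higher calls were 787 of all features, 658 on autosomes, 127 on X, 12 of piRNA, 6 of lincRNA and 1 of microRNA loci, and 7 of histone, 4 of mutator, 3 of Argonaute, 1 of oogenesis and 1 of germ granule genes, and the lower calls were 48 on X and 17 of ribosomal protein genes. The 381 calls between the crosses were 1000 with no filter on low counts, 247 with these 2 groups alone and 251 to 355 with a library left out. The 289 calls between the F2 genotypes were 890 with no filter, 99 with 2 groups alone, 435 by DESeq2 and 178 to 318 with a library left out. The 507 calls against the long-term mutants were 1144 with no filter and 173 to 430 with a library left out. Total-count scaling gave 34 higher and 319 lower calls between the F2 genotypes, 181 and 201 between the crosses, and 445 and 74 against the long-term mutants. The cause of these shifts was not tested. Depth limits features of few counts, where a library of the F2 needs 0.479 to 0.847 CPM to hold 3 counts.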
